A study of Ovis aries and Mus musculus with 20 samples.

Results

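The comparison described here was between the chromatin compartments of greater omentum fat (GOM) and retroperitoneal adipose tissue (RAD) of sheep, measured by *in situ* Hi-C. Its members were the 3 GOM and 3 RAD Hi-C libraries, 6 of the 20 samples of the series, chosen by depot and assay and joined in pairs by the sheep number in their titles. The 3 animals were adult small-tail Han sheep (*Ovis aries*), 2 years old and female, and the same number was taken as the same animal in GOM, RAD and mesenteric adipose tissue (MAD). The whole upper layer of each crosslinked piece of fat, which held the adipocytes, was lysed for nuclei and cut with MboI, so a library is an average over the nuclei of every cell type in that layer. A different mix of nuclei and a different state within 1 type of nucleus therefore cannot be told apart. Cell type markers of the depots were not analysed here, since the sheep gene identifiers could not be paired with names.

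Interphase chromosomes separate into an A compartment, which is rich in genes and in transcribed chromatin, and a B compartment, which is poorer in genes, more compact and often held at the nuclear lamina. Loci of the A compartment contact other A loci more often than distance alone would give, and B loci likewise contact B loci. Most of this division is shared by the cell types of an animal, and the loci that differ often lie near the border between the compartments. The greater omentum is a sheet of visceral fat that hangs from the stomach, is covered by mesothelium and holds clusters of immune cells known as milky spots. Retroperitoneal fat lies behind the peritoneum, around the kidney.

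Each 20-kb bin carries an A-B index, which can be above or below 0. It is the median ratio of observed to expected contact between the bin and the A regions of its chromosome, minus the same median for the B regions. A positive index puts the bin in A and a negative one in B. Every one of the 132797 bins on the 26 autosomes had a value in every library, and 36 of them (0.0271%) ran in a straight line between their neighbours in all 9 sheep libraries. The number of contacts behind each index was not used here, so the depth of a bin is unknown and no counting interval is given.

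The 6 libraries had nearly the same compartment map. Of the 26560 windows of 100 kb, 11361 (42.8%) were in A in all 6 libraries and 12575 (47.3%) in B in all 6. A GOM and a RAD library of the same animal had the same sign in 94.5% to 96.2% of the windows. The range was 94.8% to 96.5% for GOM and RAD of different animals, 95.8% to 96.4% between 2 GOM libraries and 95.1% to 95.9% between 2 RAD libraries. These ranges overlap, so libraries of different depots could not be told from libraries of 1 depot by this share.

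The size of the difference between libraries also had overlapping ranges. The root mean square difference of the index over 100-kb windows was 0.708, 0.532 and 0.556 between GOM and RAD of sheep 1, 2 and 3. It was 0.549 to 0.592 between 2 GOM libraries, 0.56 to 0.633 between 2 RAD libraries and 0.548 to 0.657 between GOM and RAD of different animals. Sheep 1 thus had the most distant pair of depots among the 15 pairs of libraries, and sheep 2 the closest. At 500 kb the corresponding values were 0.427 to 0.563 within an animal, 0.404 to 0.462 between GOM libraries and 0.425 to 0.481 between RAD libraries. At 500 kb and at 1 Mb each GOM library was closest to another GOM library, whereas at 100 kb this held only for GOM of sheep 1. RAD of sheep 2 and 3 were closest to a GOM library at each of these sizes.

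Compartment borders, taken as a change of sign between adjacent 100-kb windows, numbered 2369, 2233 and 2266 in GOM of sheep 1, 2 and 3, against 2500, 2332 and 2219 in RAD. Of the GOM borders, 81.8%, 87.3% and 82% lay within 1 window of a RAD border of the same animal, and of the RAD borders 78.5%, 84.4% and 84% lay within 1 window of a GOM border. Between 2 GOM libraries the share was 81.8% to 87.7%, and between 2 RAD libraries 76.8% to 86.8%. These ranges overlap with those of the depots of an animal.

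Measures taken over a whole library showed no difference beyond the spread between animals. The SD of the index over all bins was 3.39, 3.43 and 3.19 in GOM of sheep 1, 2 and 3, against 3.33, 3.3 and 3.38 in RAD. GOM of sheep 3 was the lowest of these 6 and GOM of sheep 2 the highest, so the spread among GOM libraries contained the RAD libraries. The mean difference, GOM minus RAD, was 0.00133 ± 0.169 (SD, n = 3; exact sign-flip permutation test, two-sided, p = 1).

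The contrast between the compartments was the mean index of the 52256 bins positive in all 9 sheep libraries minus that of the 53929 bins negative in all 9, which gave 6.53, 6.7 and 6.14 in GOM against 6.4, 6.35 and 6.58 in RAD. The difference was 0.131 in sheep 1, 0.345 in sheep 2 and -0.435 in sheep 3, with a mean of 0.0136 ± 0.403 (SD, n = 3; exact permutation p = 1). Compartments were thus better separated in GOM in sheep 1 and 2 and less well separated in GOM in sheep 3.

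The share of bins in A was 48.8%, 49.8% and 48.3% in GOM, against 48.1%, 47.2% and 48.9% in RAD. GOM was higher in sheep 1 and 2 and lower in sheep 3, and the mean difference was 0.946 ± 1.63 percentage points (SD, n = 3; exact permutation p = 0.5). Stretches of adjacent bins of 1 sign numbered 10877, 10204 and 10918 in GOM and 11053, 10923 and 10285 in RAD, a mean difference of -87.3 ± 680 (SD, n = 3; exact permutation p = 0.75). With 3 pairs this test cannot give a p below 0.25, and all 4 adjusted p-values were 1.

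The depots were next compared bin by bin and window by window with limma, with the sheep as a block and the MAD libraries in the same fit. At the finest scale 0 of the 132797 bins of 20 kb passed an adjusted p of 0.05 (lowest adjusted p = 0.528). An unadjusted p under 0.05 was found in 11947 bins (9.0%), of which 8305 had the higher index in GOM and 3642 the lower. Of the 26560 windows of 100 kb, again 0 passed (lowest adjusted p = 0.0619), while 3074 (11.6%) had an unadjusted p under 0.05, 2345 of them higher in GOM and 729 lower. The middle 90% of the fitted differences, GOM minus RAD, ran from -0.797 to 0.995 for bins and from -0.494 to 0.714 for 100-kb windows. Their median standard errors were 0.389 and 0.273. With errors of this size, a count of 0 does not show that the depots were alike. At 100 kb the count of calls was 223 without GOM of sheep 3, 151 without RAD of sheep 3, 9 without MAD of sheep 1, 1 without RAD of sheep 1 and 13 in the 6 GOM and RAD libraries alone.

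The predominance of windows with a higher index in GOM was not seen without sheep 2. GOM was higher than RAD in 76.3% of the 100-kb windows with an unadjusted p under 0.05. Without sheep 2 the share was 49.6%, without sheep 1 85% and without sheep 3 76%. It was 53.6% when the libraries were brought to 1 distribution by quantile normalization and 54.5% when each chromosome of each library was centred on its mean, but both scalings bring the mean difference near 0 by construction. Over all windows the median difference was 0.0762 with 3 sheep and 0.0147 without sheep 2.

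Larger windows average over more bins, and here some passed the threshold. Of the 5309 windows of 500 kb, 20 were called (0.377%), and each had a higher index in GOM. Their fitted differences were 0.88 to 1.46 index units, with adjusted p-values from limma of 0.0355 to 0.0476. The error in these fits, at every scale, is pooled over the 3 depots. Deviations from the depot means over 100-kb windows correlated at a mean of 0.427 between RAD and MAD of the same sheep. Between GOM and RAD of the same sheep the mean was 0.0356. The pooled error can therefore be too small for GOM minus RAD, which was not tested. In all 20 called windows the 3 GOM libraries lay above the 3 RAD libraries, as they did in 626 of the 5309 windows. Within the 20 windows, 22 to 25 of the 25 bins of 20 kb had the higher mean index in GOM. The windows were called on the mean of these bins in these libraries, so both counts largely follow from the call.

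The 20 windows lay on 10 autosomes: 4 each on chromosomes 1 and 25, 3 on chromosome 19, 2 each on chromosomes 8 and 12, and 1 each on chromosomes 7, 9, 13, 15 and 26. In 7 windows the index was positive in all 6 libraries and in 9 it was negative in all 6. In 3 windows it was positive in the 3 GOM libraries and negative in the 3 RAD libraries, and 1 window on chromosome 8 had mixed signs. The difference therefore mostly lay in the strength of the A or B state and not in its sign. The median difference over the 20 windows was 1.46 in sheep 1 (0.813 to 2.38), 0.983 in sheep 2 (0.676 to 1.43) and 0.813 in sheep 3 (0.422 to 2.08), and sheep 1 had the largest difference in 13 of the 20.

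**Figure D1:**
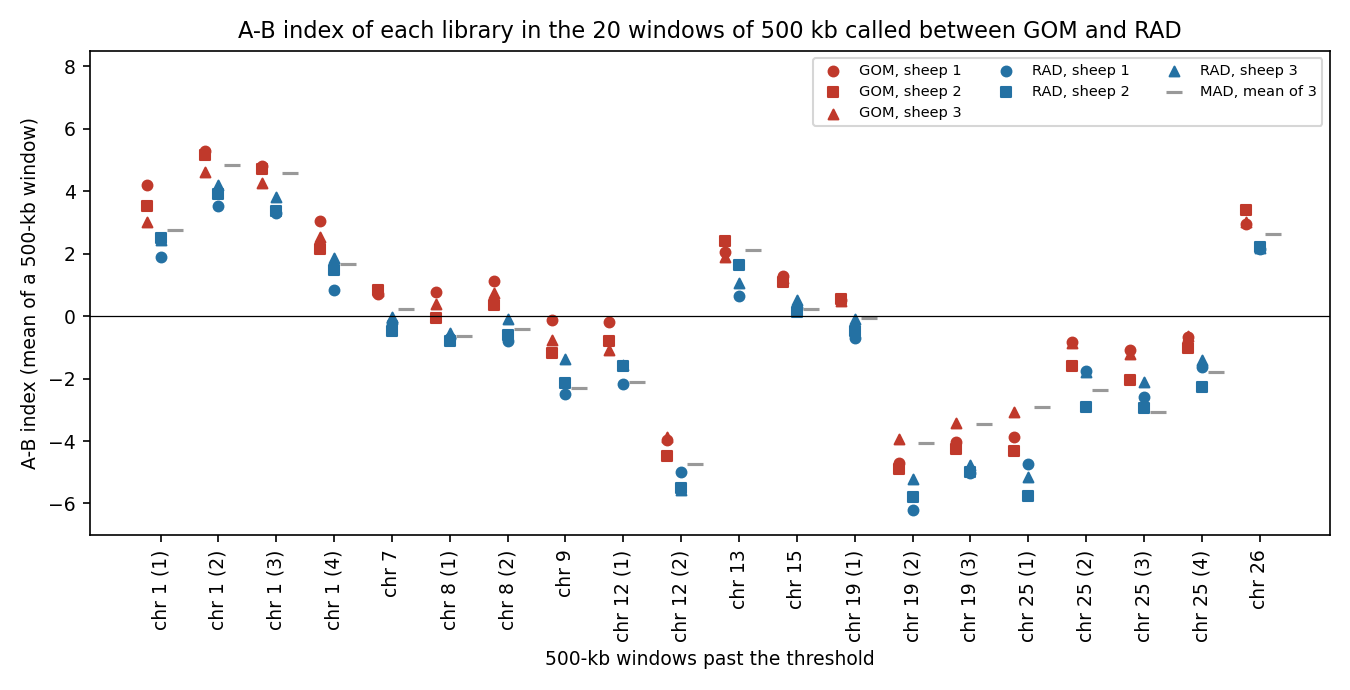
A-B index (vertical axis, mean over a 500-kb window, no unit) of each GOM and RAD library and the mean of the 3 MAD libraries in the 20 windows of 500 kb past the threshold, in chromosome order, with numbers in brackets for windows of 1 chromosome. In every window the 3 GOM points lie above the 3 RAD points, by 0.88 to 1.46 on the fitted mean. The windows were called on these same values.

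These calls depended on the fit. The count of 500-kb windows was 0 when the sheep was left out of the model (lowest adjusted p = 0.124), 0 after quantile normalization, where the lowest adjusted p was 0.0558, and 0 when chromosomes were centred. It was also 0 with the median of the bins and on a shifted grid. The differences themselves stayed close after quantile normalization, at 1.15 against 1.23 in chr8:10000001-10500000, 0.967 against 1.05 in chr8:9500001-10000000 and 1.04 against 1.1 in chr25:16500001-17000000. The count was 36 in the 6 GOM and RAD libraries alone with the block, 30 higher and 6 lower in GOM, and 17 of the 20 windows were among those 36. With 2 residual degrees of freedom, limma gave each window in that fit the variance of the trend and not its own. An unadjusted p under 0.05 was found in 8.85% of windows there, against 12.6% in the main fit. The 36 calls also come from libraries of the main fit, so they are not separate support. Without GOM or RAD of sheep 2 no window was called, without GOM of sheep 3 97 were, and without RAD of sheep 3 146 were. Without the whole of sheep 3 there were 0 calls at 500 kb, 0 at 1 Mb and 2 at 100 kb. Leaving out GOM of sheep 1, RAD of sheep 1 or MAD of sheep 1, 2 or 3 gave 13, 3, 70, 12 and 5 calls. The weight of the variance trend, in prior degrees of freedom, was 48.7 with 146 calls and 187 with 70, against 16.2 in the main fit. It was 7.67 with 97 calls and 283 with 3. This weight also changed from fit to fit at the other scales.

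MAD of the same sheep enters neither side of the difference but was part of the fit that called the windows. It lay nearer to RAD in 14 of the 20 windows and nearer to GOM in 6. Its mean was between the 2 depots in 11 windows, below RAD in 6 and above GOM in 3. Over all 5309 windows MAD lay nearer to RAD in 2657 (50%), and over the 626 windows in which the 3 GOM libraries lay above the 3 RAD libraries it did so in 229 (36.6%). Since MAD helped to set the error of these calls, the share of 70% in the 20 windows is not an outside reading, and it was not tested.

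The most extended difference lay on chromosome 25. Its longest run of adjacent 100-kb windows with an unadjusted p under 0.05 and a higher index in GOM in all 3 animals was chr25:15400001-17000000, 1.6 Mb in Oar_rambouillet_v1.0 and the longest such run of either direction in the genome. The index over it was -1.18, -2.08 and -1.25 in GOM of sheep 1, 2 and 3, against -2.4, -3.19 and -2.03 in RAD. Each sheep had the higher value in GOM, by 1.21, 1.11 and 0.78, but RAD of sheep 3 was slightly above GOM of sheep 2, so the depots overlapped when the animals were ignored. The mean difference was 1.04 ± 0.227 (SD, n = 3). The mean over the run was in B in all 6 libraries, and MAD, at -2.87 ± 0.245, had on average the lowest index of the 3 depots.

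The same stretch gave the single call among 2656 windows of 1 Mb (0.0377%), at chr25:16000001-17000000. Its index was -0.957, -1.83 and -1.04 in GOM and -2.17, -2.93 and -1.95 in RAD, a fitted difference of 1.08 ± 0.182 (SE) with an adjusted p of 0.019 in limma. The adjusted p was 0.0346 after quantile normalization, 0.0753 with centred chromosomes and 0.138 without the sheep in the model. The call count was 26 on a shifted grid and 28 with each chromosome divided by its SD, 25 and 26 of them higher in GOM, and 0 with the median of the bins. No 1-Mb window was called without GOM or RAD of sheep 2, 88 were without GOM of sheep 3 and 95 were without RAD of sheep 3. Without GOM, RAD or MAD of sheep 1 there were 7, 2 and 31. A further window called at 500 kb was chr25:18000001-18500000, with -0.681, -1.03 and -0.626 in GOM against -1.62, -2.28 and -1.41 in RAD.

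Over chr25:14000001-18500000, a stretch of 4.5 Mb bounded by called windows and so chosen after its values were seen, the mean index was higher in GOM in each of the 9 windows of 500 kb, by 0.532 to 1.46. GOM was higher in 8 of the 9 windows in sheep 1 and in 9 of 9 in sheep 2 and sheep 3. The exception in sheep 1 was chr25:14500001-15000000, at -2.47 in GOM and -2.04 in RAD. MAD did not follow 1 depot along this stretch. At chr25:14000001-14500000 it averaged -2.9, above GOM at -3.75 and RAD at -5.21, whereas at chr25:16500001-17000000 it averaged -3.09, below GOM at -1.45 and RAD at -2.55. The merged maps held 5 topologically associating domains (TADs, stretches that contact themselves more than their surroundings) over chr25:15400001-17000000 in GOM and 4 in RAD.

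A pair of adjacent windows on chromosome 8 showed a change of sign. At chr8:10000001-10500000 the index was 1.14, 0.345 and 0.729 in GOM, against -0.802, -0.596 and -0.0812 in RAD, so all 3 GOM libraries were in A and all 3 RAD libraries in B. The fitted difference was 1.23 ± 0.221 (SE; adjusted p = 0.0355). At chr8:9500001-10000000 the values were 0.771, -0.0531 and 0.385 in GOM and -0.716, -0.781 and -0.542 in RAD, a difference of 1.05 ± 0.197 (SE; adjusted p = 0.0355), and GOM of sheep 2 was just inside B. MAD averaged -0.405 and -0.628 in these windows, on the side of RAD. The difference was largest in sheep 1 in both, at 1.94 and 1.49. The merged maps had 1 TAD over the first window in either depot and 2 over the second.

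**Figure D2:**
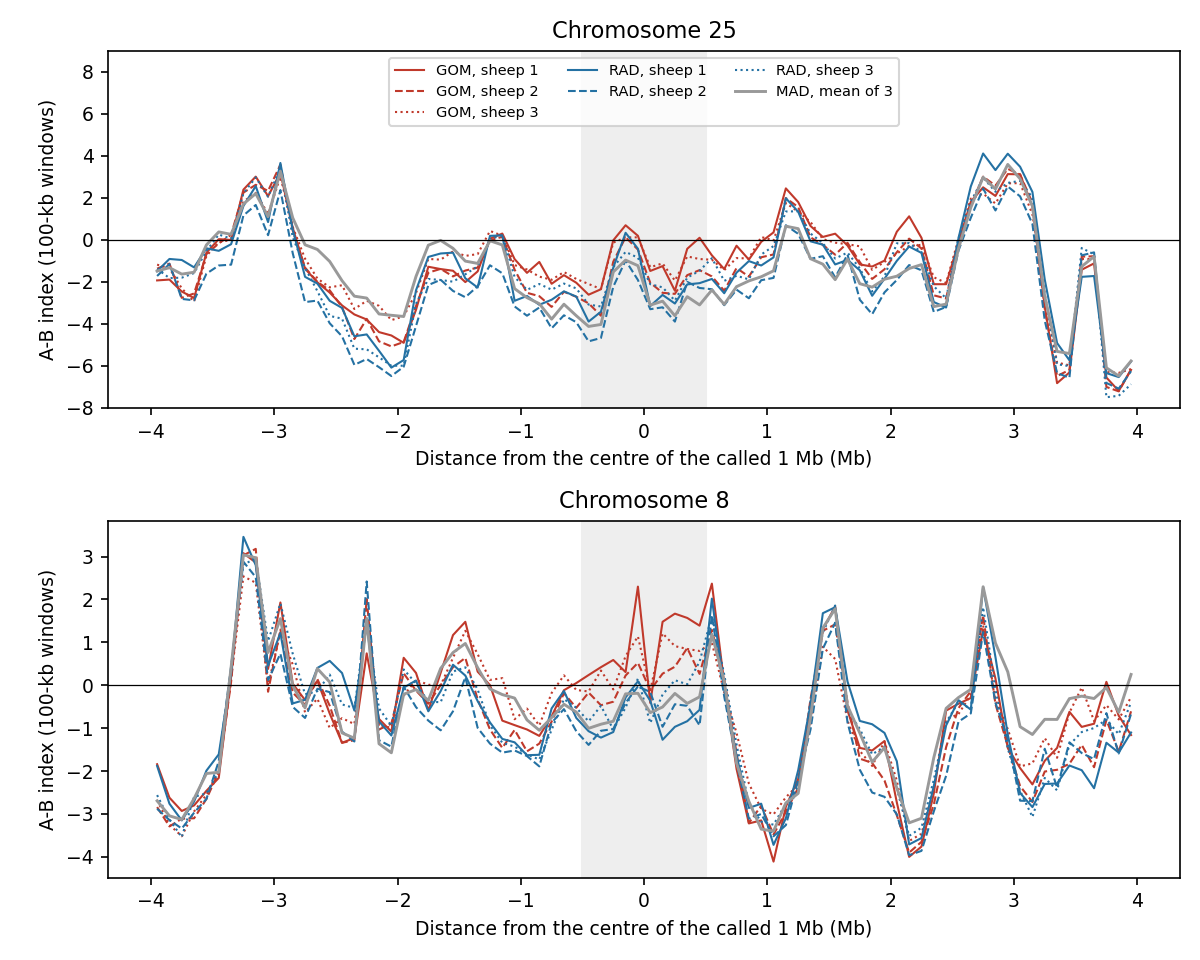
A-B index of 100-kb windows (vertical axis, no unit) along chromosome 25 and chromosome 8, plotted against the distance in Mb from the centre of the shaded 1 Mb that holds adjacent called windows. Each line is 1 library of GOM or RAD, and the grey line is the mean of the 3 MAD libraries. Within the shading on chromosome 8 GOM is on average above 0 and RAD below, and on chromosome 25 both are on average below 0.

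The other windows with a change of sign lay on chromosomes 7 and 19. At chr7:23500001-24000000 the index was 0.71, 0.847 and 0.797 in GOM against -0.209, -0.473 and -0.0189 in RAD, and at chr19:33500001-34000000 it was 0.504, 0.545 and 0.494 in GOM against -0.686, -0.473 and -0.103 in RAD. The 3 GOM values lay close together in both, and RAD of sheep 3 was the library nearest to 0. The fitted differences were 1.02 ± 0.192 and 0.935 ± 0.2 (SE), with adjusted p-values of 0.0355 and 0.0458.

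Among called windows that were in A in every library, chromosome 1 held 4. At chr1:195000001-195500000 the index was 4.21, 3.53 and 3.02 in GOM against 1.9, 2.51 and 2.43 in RAD. The longest run on this chromosome, chr1:290300001-291500000, had 3.43, 2.56 and 2.88 in GOM and 1.04, 1.93 and 2.32 in RAD. The depots did not overlap there, but the difference was 2.39 in sheep 1 and only 0.637 and 0.56 in sheep 2 and 3, a mean of 1.2 ± 1.03 (SD, n = 3). MAD, at 2.04 ± 0.21, was near RAD.

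At the B end, chr12:38500001-39000000 had -3.96, -4.48 and -3.88 in GOM against -4.99, -5.5 and -5.56 in RAD, and chr19:46500001-47000000 had -4.7, -4.88 and -3.93 in GOM against -6.19, -5.8 and -5.21 in RAD. On chromosome 9 a run of 1.1 Mb at chr9:32600001-33700000 had -1.22, -1.57 and -1.58 in GOM and -2.44, -2.34 and -2.22 in RAD, a difference of 0.876 ± 0.307 (SD, n = 3). MAD averaged -1.48 ± 0.348 in that run and so lay with GOM, unlike in the runs on chromosomes 1 and 25. GOM was less deep in B than RAD at each of these places, and the state was B in each.

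A lower index in GOM was rarer, and in the fit of 9 libraries with the block no window with a lower index in GOM passed the adjusted threshold. In the 6 GOM and RAD libraries alone with the block, 6 windows of 500 kb and 2 of 100 kb did, and with 1 library left out 0 to 21 windows of 500 kb did, the most without RAD of sheep 3. The 3 windows of 500 kb with the lowest p in that direction and 1 sign in all 3 animals were chr2:500001-1000000, chr22:53500001-54000000 and chr9:48000001-48500000, with adjusted p-values of 0.0675, 0.0758 and 0.0805. The first had 2.41, 3.47 and 2.34 in GOM against 3.73, 3.66 and 3.79 in RAD, and the difference was -1.32, -0.191 and -1.45. GOM of sheep 2 thus sat close to RAD while the other 2 GOM libraries were well below. At chr22:53600001-54300000, the longest run with GOM lower, the index was -1.42, -0.603 and -1.21 in GOM and -0.221, -0.256 and -0.176 in RAD, and the smallest difference was again in sheep 2, at -0.347. Both places lie within 2 Mb of a chromosome end, with centres 0.75 and 1.73 Mb from it.

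The remaining runs with GOM lower were on chromosomes 9 and 4. At chr9:48200001-48600000 the index was -1.96, -1.04 and -0.979 in GOM against 0.568, -0.467 and -0.0256 in RAD. GOM was in B in each sheep and RAD lay about the border. At chr4:125400001-125900000, deep in B, it was -4.19, -3.01 and -3.45 in GOM against -2.7, -2.39 and -2.95 in RAD, with MAD at -2.32 ± 0.295 on the RAD side.

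Towards chromosome ends the sign of the difference was not shared by the animals. Over the 2600 bins within 1 Mb of an end the mean difference was -0.546 in sheep 1, 0.135 in sheep 2 and -0.12 in sheep 3, a mean of -0.177 ± 0.344 (SD, n = 3). Beyond 20 Mb from an end it was 0.0355, 0.225 and 0.112, higher in GOM in all 3 animals, with a mean of 0.124 ± 0.0952.

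A full switch of compartment was uncommon. Of the 26560 windows of 100 kb, 54 (0.203%) were in A in the 3 GOM libraries and in B in the 3 RAD libraries, and 6 (0.0226%) were in B in GOM and in A in RAD. For 20-kb bins the counts were 314 (0.236%) and 139 (0.105%). Windows whose libraries did not overlap between the depots at all, of either sign, were 2651 with GOM above (9.98%) and 821 with GOM below (3.09%). With 1 library left out, so that fewer libraries had to share a sign, the 54 became 77 to 170, the most without RAD of sheep 3. The 6 became 12 to 26 without a library of sheep 1 or 3, and 58 and 52 without GOM or RAD of sheep 2. After quantile normalization, which by construction evens the share of each library above 0, the switching windows numbered 33 and 27.

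The switching windows had an index near 0. The 54 windows had a median of 0.371 in GOM and -0.325 in RAD, and none of them or of the 6 others kept its class when every library had to lie more than 0.5 index units from 0. Of the 54, 40 (74.1%) lay beside a change of sign of the mean index, against 15.1% of all windows, and a window near 0 is by construction more often beside one. They fell on 20 autosomes in 49 runs, and the longest runs were of 2 windows. MAD was in A in 25 of the 54 (46.3%) and in 49.1% of all windows.

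The first 3 of the longest runs in A in GOM and in B in RAD were chr2:229300001-229500000, chr4:86700001-86900000 and chr7:23700001-23900000. On chromosome 2 the index was 1.13, 0.161 and 0.193 in GOM against -0.837, -0.106 and -0.368 in RAD, so sheep 1 had most of the difference. On chromosome 4 it was 0.809, 0.594 and 0.335 in GOM against -0.357, -0.0914 and -0.182 in RAD. On chromosome 7, within the window called at 500 kb, it was 0.567, 0.598 and 1.01 in GOM against -0.338, -0.807 and -0.0939 in RAD, a mean difference of 1.14 ± 0.252 (SD, n = 3). The merged maps had 1 TAD over each of these 3 runs in either depot.

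In the opposite class the 6 windows stood alone. At chr7:400001-500000 the index was -0.142, -0.205 and -0.609 in GOM against 1.29, 0.575 and 0.298 in RAD, a difference of -1.04 ± 0.347 (SD, n = 3). At chr1:299100001-299200000 it was -0.0899, -0.422 and -0.335 in GOM against 0.22, 0.276 and 0.41 in RAD, and at chr4:36100001-36200000 it was -0.376, -0.347 and -0.0708 in GOM against 0.282, 0.182 and 0.409 in RAD. By the rule of this class the libraries of the depots cannot overlap at these 3 places. Their mean distance from 0 was under 1 index unit in either depot.

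Edges of the TADs called on the merged map of each depot were mostly shared, 90.4% of the 8774 edges in GOM lying within 40 kb of an edge in RAD, and 94.6% of the 8374 edges in RAD within 40 kb of one in GOM. Of the edges that fell in the 60 switching windows, 18 of 18 in GOM and 19 of 20 in RAD had a partner in the other depot. The merged maps have no replicates, so these shares have no error.

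Whether the 3 sheep showed the same difference was examined across all windows. The Pearson correlation of GOM minus RAD between sheep 1 and 2 was 0.296 over the 26560 windows of 100 kb, that between sheep 1 and 3 was 0.0922 and that between sheep 2 and 3 was -0.155. The mean of the 3 was 0.0776, and it was 0.151 after quantile normalization and 0.148 with each chromosome divided by its SD. Windows are neighbours on a chromosome and share the per-chromosome setting of A and B, so these values are descriptions. With wider windows the pairs moved further apart, to 0.382, 0.0917 and -0.287 at 1 Mb. GOM minus MAD had correlations of 0.585, 0.508 and 0.344 at 100 kb and RAD minus MAD of 0.536, 0.55 and 0.601. These 3 contrasts share libraries and the gap between them was not tested.

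**Figure D3:**
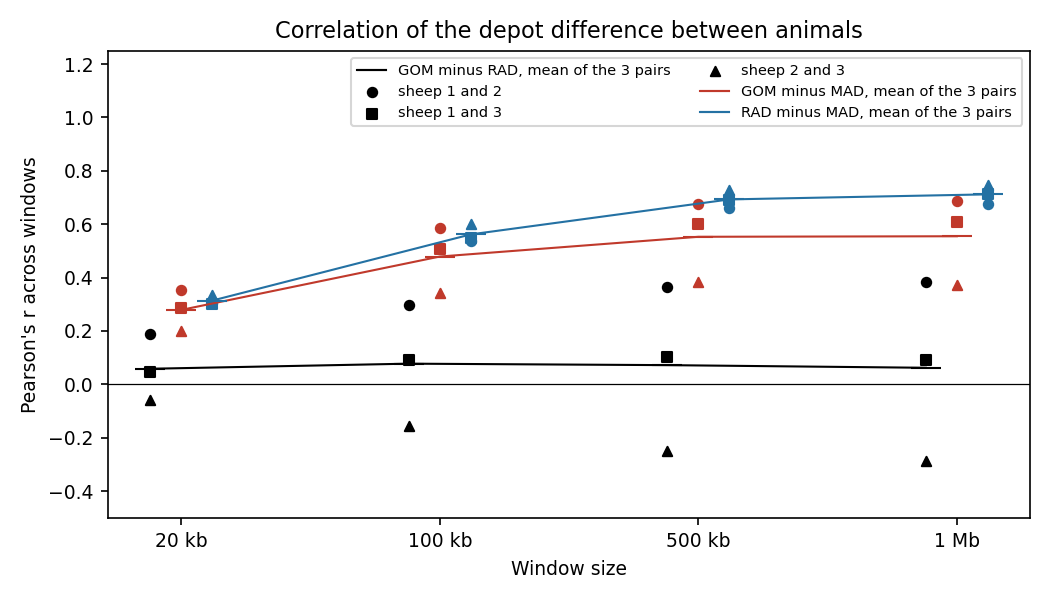
Pearson's r across windows (vertical axis) between the depot differences of 2 animals, for 4 window sizes (horizontal axis) and the 3 contrasts of depots, with a point for each pair of animals and a line through their mean. For GOM minus RAD the pair of sheep 2 and 3 lies below 0 at each size, reaching -0.287 at 1 Mb, and the mean stays between 0.0585 and 0.0776.

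The animals differed in how GOM minus RAD changed with the strength of the compartment. When the 100-kb windows were put into 10 equal groups by the mean index of the MAD libraries, which enter neither side of the difference, sheep 2 had a difference of 0.0889 in the group deepest in B and 0.392 in the group highest in A. Sheep 3 had 0.361 in the first and -0.0675 in the last, and sheep 1 had -0.166 and -0.0938. In the A groups GOM was thus higher in sheep 2 and lower in sheep 3, and in the deepest B groups it was higher in sheep 3. The mean of the 3 animals was nearly flat, at 0.0684 to 0.106 in the 10 groups. The slope of the difference on the mean index of the 6 libraries was 0.0228 in sheep 1, 0.044 in sheep 2 and -0.0596 in sheep 3, and after this line was taken out of each animal the correlations at 100 kb were 0.279, 0.137 and -0.0598.

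**Figure D4:**
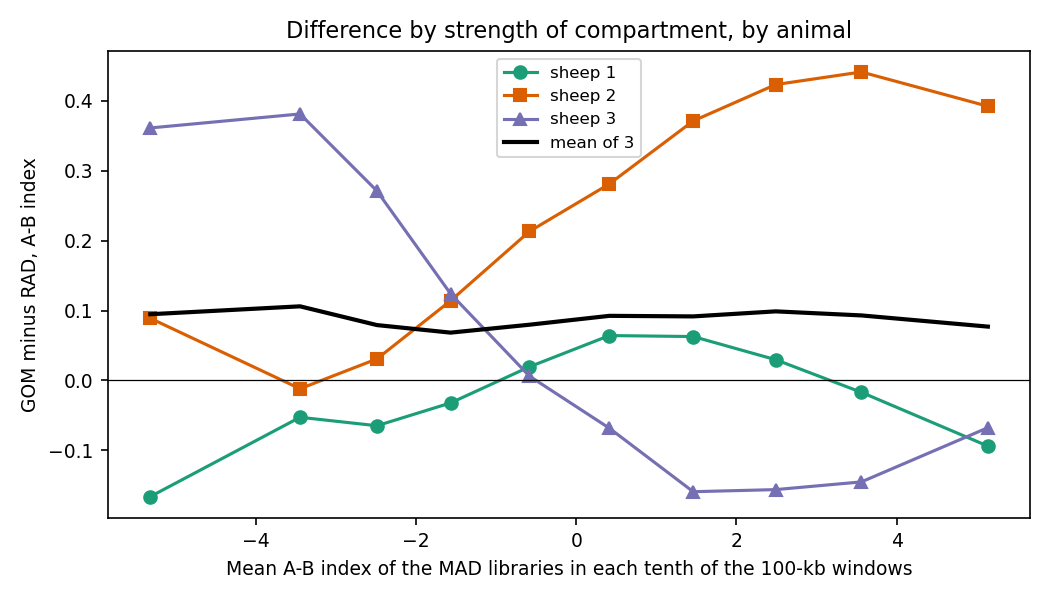
GOM minus RAD difference of the A-B index (vertical axis) in 10 equal groups of 100-kb windows, placed at the mean index of the 3 MAD libraries in each group (horizontal axis), for each sheep and for the mean of 3. The lines of sheep 2 and sheep 3 cross, and the mean stays between 0.0684 and 0.106.

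Large differences seen in a pair of animals were read in the animal left over. Where GOM exceeded RAD by more than 1 in sheep 2 and sheep 3, 44 of 55 windows of 100 kb (80%) were also higher in GOM in sheep 1, with a median of 0.775, against 47.1% of all windows in sheep 1. For sheep 2, 60 of 76 windows (78.9%) chosen in the other animals were higher in GOM, against 68.5% of all windows. For sheep 3 it was 227 of 417 windows (54.4%), against 53.9% of all, with a median of 0.067. In the other direction the shares were 0 of 1 windows in sheep 1, 60 of 134 (44.8%, against 31.4% of all windows) in sheep 2 and 14 of 24 (58.3%, against 46%) in sheep 3. At 500 kb 18 of 28 windows (64.3%) chosen in sheep 1 and 2 were higher in GOM in sheep 3, against 53.9% of all, with a median of 0.129. Neighbouring windows are not independent, so these shares have no test.

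Whole chromosomes were compared last. Of the 26 autosomes, 2 (7.69%) differed in mean index in limma, chromosomes 1 and 2, which are the longest of the assembly at 301.3 and 265.7 Mb. On chromosome 1 the mean index was 0.755, 0.753 and 0.657 in GOM against 0.543, 0.558 and 0.468 in RAD, and on chromosome 2 it was 0.727, 0.758 and 0.61 in GOM against 0.552, 0.538 and 0.439 in RAD. The libraries of the depots did not overlap on either, nor on chromosomes 10 and 11, which were not called. In all, 4 of the 26 autosomes had every GOM library above every RAD library, and 0 had the reverse. The fitted differences were 0.199 ± 0.0308 and 0.189 ± 0.0316 (SE), with adjusted p-values of 7.23e-05 and 0.000101. These were the smallest SE of any autosome, against 0.0661 to 0.12 on the others. The variance trend had a weight of 15.9 prior degrees of freedom in this fit, against 4 residual ones. No fit of autosomes without the trend was made, so its part in these p-values was not tested. MAD was higher than both depots, at 0.838 ± 0.0372 and 0.781 ± 0.0561 (SD, n = 3).

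The difference had nearly the same size in each sheep, 0.213, 0.196 and 0.189 on chromosome 1 and 0.175, 0.22 and 0.171 on chromosome 2. A fit with the sheep as a block favours a small spread between sheep, so this closeness follows in part from the call. Chromosome 3, also metacentric in sheep and 241.2 Mb long, had -0.154, 0.213 and 0.0696, and its difference of 0.0429 ± 0.0663 (SE) was within the error (adjusted p = 0.802). Over the 26 autosomes GOM had the higher mean index in 9 in sheep 1, in 26 in sheep 2 and in 17 in sheep 3, and in all 3 sheep in 5. The other 3 of these 5 were chromosomes 10, 11 and 20. Chromosome 11 had the largest mean difference of any autosome, 0.233 ± 0.0954 (SE), with -0.655, -0.445 and -0.664 in GOM against -0.874, -0.812 and -0.777 in RAD. Its libraries did not overlap between the depots, but its differences of 0.219, 0.367 and 0.113 spread more widely and it was not called (adjusted p = 0.208).

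**Figure D5:**
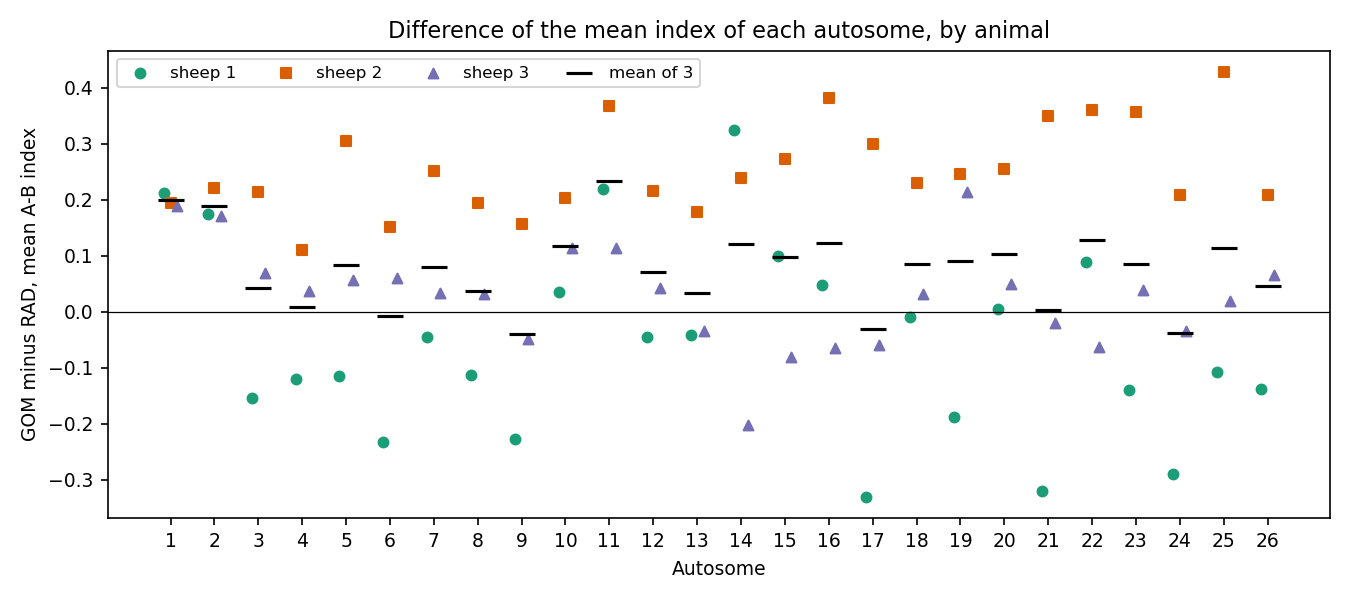
GOM minus RAD difference of the mean A-B index (vertical axis) of each of the 26 autosomes (horizontal axis) in each sheep, with a bar at the mean of 3. The 3 animals lie within 0.189 to 0.213 on chromosome 1 and within 0.171 to 0.22 on chromosome 2, and spread from below to above 0 on most others. Chromosomes 1 and 2 were called on these same values.

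In steps of 10 Mb, the mean over the 3 sheep was higher in GOM in 30 of 30 steps on chromosome 1 (median 0.181, 0.0121 to 0.58) and in 25 of 27 on chromosome 2 (median 0.178, -0.133 to 0.346). All 3 sheep had a higher value in GOM in 15 and 16 of these steps. On chromosomes 3 to 26 the mean was higher in GOM in 146 of 209 such steps (69.9%) and all 3 sheep were higher in 32 (15.3%). Chromosomes 1 and 2 were called on their mean difference and its spread between sheep, so these counts describe how the shift was spread along them. The share of bins in A was 54.2%, 53.5% and 53.8% in GOM and 52.6%, 51.8% and 53% in RAD on chromosome 1, and 57.6%, 57.8% and 57.1% in GOM and 55.5%, 55.4% and 56% in RAD on chromosome 2. More of both chromosomes was therefore in A in GOM of each animal.

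The animals arrived at a similar mean by different compartments. In the bins of chromosome 1 that were in A in all 9 sheep libraries, the difference was 0.516 in sheep 1, 0.473 in sheep 2 and 0.0218 in sheep 3. In the bins in B in all 9 it was -0.129, -0.127 and 0.434. Chromosome 2 had 0.333, 0.477 and -0.0512 in A bins and -0.0613, -0.13 and 0.495 in B bins. Sheep 1 and sheep 2 thus had the higher GOM index in A and sheep 3 had it in B. On chromosomes 3 to 26 the differences were -0.111, 0.376 and -0.182 in A bins and -0.112, 0.0967 and 0.256 in B bins. The higher GOM index of sheep 2 in A and of sheep 3 in B was therefore not particular to chromosomes 1 and 2. Bins that were of both signs among the 9 libraries had a higher GOM index in all 3 animals on chromosomes 1 and 2. Their differences were 0.178, 0.18 and 0.0977 on chromosome 1 and 0.189, 0.192 and 0.163 on chromosome 2. On chromosomes 3 to 26 such bins had 0.0224, 0.293 and -0.0933, which were not of 1 sign.

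Neither chromosome was called when the sheep was left out of the model (adjusted p = 0.0608 and 0.063). After quantile normalization the differences were 0.116 and 0.1 (adjusted p = 0.365 for both), and with each library centred on its mean over the autosomes they were 0.123 and 0.113 (adjusted p = 0.505 for both). Both scalings take out part of a shift shared by a library, and the part of library level in these calls was not tested.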

How the data were processed

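Juicer 1.5.6 was run by the authors with BWA 0.7.8 as aligner against Oar_rambouillet_v1.0, and they kept read pairs with a mapping quality of at least 30. They set A and B regions on the first principal component of the 100-kb matrix of each chromosome (R 3.6.1), and deposited 1 score per library and 20-kb bin, the A-B index. The paper describes Knight-Ruiz balancing of contact maps, with quantile normalization added for 100-kb matrices when replicates or depots were compared. Merged maps were also brought to similar depth for comparison between species. These steps are not named for the index of single libraries. Whether the libraries were normalized to each other before the index was computed is not given in the sources used here. The TADs of the merged map of each depot were deposited as positions (other values: starts and ends in bases). Since the index is set per chromosome and library, a chromosome or library can shift in level, which centring and quantile normalization were used to examine.

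Windows of 100 kb, 500 kb and 1 Mb took the mean of their bins, with at least 60% of the bins present. Differences were tested with limma 3.58.1 in R 4.3.3 with a variance trend, 9 sheep libraries, depot and sheep as terms, 4 residual degrees of freedom and p-values adjusted by Benjamini-Hochberg (threshold 0.05). Library measures were compared by an exact two-sided sign-flip test within animals, adjusted over 4 measures. Libraries with 1 sheep number in their titles were taken as 1 animal in the 3 depots. Deviations from the depot means at 100 kb correlated at -0.0312 to 0.115 between GOM and RAD of the same sheep, at -0.0123 to 0.222 between GOM and MAD, and at 0.414 to 0.44 between RAD and MAD. Between different sheep the ranges were -0.0848 to 0.0591, -0.155 to 0.0984 and -0.255 to -0.165. The ranges of same and different sheep thus overlapped for GOM and RAD and for GOM and MAD, and were apart only for RAD and MAD. Deviations from the mean of the 3 libraries of a depot cancel out. The values between different sheep therefore follow in part from those of the same sheep, and the gap for RAD and MAD is widened by construction. Python 3.11.15, numpy 2.4.6, pandas 2.3.3 and matplotlib 3.10.9 were used for the rest.

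Regions were named by rule: the 3 longest runs of 100-kb windows per direction with an unadjusted p under 0.05 and 1 sign in all sheep, the 3 windows of 500 kb per direction with the lowest p and 1 sign, and the 3 longest runs of each switching class, taken in genome order among equals. The called windows are described beside them. Members and rules were chosen with earlier results of these data known. Gene names, sequences and RNA-seq were not used here. Other alternatives were quantile normalization, other scalings, windows and libraries, and the leaving out of each library. Centring, the removal of filled bins and the leaving out of each sheep were chosen after seeing the data.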

Additional observations from a re-analysis of the deposited data

How the results depend on the processing

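Of 100-kb windows, 13 were called in the 6 GOM and RAD libraries with the replicate block and 1 on a shifted grid. Of 500-kb windows, 36 were called in the 6 libraries with the block and 0 without the block (9 or 6 libraries), after quantile normalization, with the median of the bins, on the shifted grid or with centred chromosomes. Of 1-Mb windows, 12 were called in the 6 libraries with the block, 28 with each chromosome divided by its SD, 26 on the shifted grid, and 0 without the block (9 or 6 libraries), with the median of the bins or with centred chromosomes. Of autosomes, 0 were called without the block (9 or 6 libraries), after quantile normalization or with libraries centred. The windows in A in GOM and B in RAD numbered 33, and those in B in GOM and A in RAD 27, after quantile normalization, 0 and 0 with 0.5 index units on both sides of 0, and 0.105% of bins for the second class. The cause was not tested.

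With libraries or sheep left out in turn, 0 bins of 20 kb, 0 to 223 windows of 100 kb, 0 to 146 of 500 kb, 0 to 95 of 1 Mb and 2 to 3 autosomes were called. In the same settings the difference in SD was -0.0625 to 0.0969, that in the A minus B contrast -0.152 to 0.238, that in the share in A 0.0866 to 1.71 percentage points and that in domains -448 to 228. The switching windows numbered 77 to 170 and 12 to 58, and the mean correlation between animals was -0.155 to 0.296. Fits with a library left out assume that the others vary alike. The fits also differ in how far each variance is drawn to the trend, so their counts do not carry equal weight. For library measures and named regions a library was left out with its pair, which cannot turn a region chosen for 1 sign in all sheep. The 18 named regions kept their direction after quantile normalization and with each chromosome divided by its SD. They were chosen in the same data for a difference of 1 sign in all sheep, so this was close to fixed in advance. With 3 animals and the depth of a bin unknown, small differences were not detectable.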
